A study of Mus musculus with 16 samples.

Results

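The genes described here are 8 listed genes of the red blood cell lineage, the adult alpha-globins *Hba-a1* and *Hba-a2*, the adult beta-globins *Hbb-bs* and *Hbb-bt*, and *Alas2*, *Slc4a1*, *Ahsp* and *Hemgn*, out of 51912 genes in the count table. They were chosen by name from textbook knowledge of red cells, at a time when earlier results of these data were known. Their symbols were matched to Ensembl identifiers through GENCODE release M39. Of the 8, 7 were matched to a row of the table. *Ahsp*, the chaperone of free alpha-globin, was not matched and is not analysed here. *Hemgn*, a nuclear protein of red cell precursors, had between 0 and 6 counts in a library and was too low to be tested, which left 6 genes tested. The libraries were made from whole neonatal mouse ventricles, together with any blood that the tissue held.

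Total RNA from the ventricles of 16 mice was sequenced after depletion of ribosomal RNA, with 4 mice in each of 4 groups and male and female animals in balance within a group. Wild type (WT) animals were C57BL/6J mice from a commercial breeder, and knockout (KO) animals lacked *Lrrc10*, a cardiomyocyte protein gene, in the whole body on a C57BL/6 background. Whether KO and WT animals were littermates was not given. On postnatal day 1 the animals had either a myocardial infarction (MI), in which the left anterior descending coronary artery was tied off, or a sham operation (SH), in which the chest was opened and closed without exposing the heart. Ventricles were collected 7 days after surgery. The 4 groups are called KO MI, KO SH, WT MI and WT SH, with replicates numbered 1 to 4 except in KO MI, where they are 1, 2, 3 and 7. *Lrrc10* had 0 counts in all 8 KO libraries and between 1075 and 1850 counts in the WT libraries. The libraries held between 33783874 and 57470159 counts, and the cardiomyocyte genes checked, such as *Myh6*, were abundant in all of them.

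Haemoglobin is a tetramer of alpha-type and beta-type globin chains, each carrying a heme. Circulating mouse red cells have no nucleus and cannot transcribe genes, but young red cells, the reticulocytes, still hold globin mRNA and a remainder of the mRNA for heme synthesis and membrane proteins, and reticulocytes make up a large share of the blood of newborn mice. *Alas2* encodes the erythroid form of the first enzyme of heme synthesis, and *Slc4a1* encodes band 3, the anion exchanger and a main anchor of the red cell membrane.

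On GRCm39, the alpha-globin genes lie next to each other on the plus strand of chromosome 11, *Hba-a1* (ENSMUSG00000069919) at chr11:32233186-32234504 and *Hba-a2* (ENSMUSG00000069917) at chr11:32246168-32247320. The beta-globin genes lie on the minus strand of chromosome 7, *Hbb-bs* (ENSMUSG00000052305) at chr7:103475730-103482989 and *Hbb-bt* (ENSMUSG00000073940) at chr7:103461727-103465047. *Alas2* (ENSMUSG00000025270) is on the X chromosome at chrX:149330371-149353634. *Slc4a1* (ENSMUSG00000006574) is at chr11:102239650-102257029 and *Hemgn* (ENSMUSG00000028332) at chr4:46393989-46413506, both on the minus strand.

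Within each globin pair the coding sequences are nearly the same, which bears on how far reads can be told apart. The coding sequences of *Hba-a1* and *Hba-a2*, 426 bases each without the stop codon, differ at 1 position in the annotation, C381T. Those of *Hbb-bs* and *Hbb-bt*, 441 bases each, also differ at 1 position, C417T. Positions count from 1 at the A of the start codon, and the first base belongs to the gene named first. The last 90 coding bases hold the difference in each pair, shown here with the differing base in a capital.
*Hba-a1*: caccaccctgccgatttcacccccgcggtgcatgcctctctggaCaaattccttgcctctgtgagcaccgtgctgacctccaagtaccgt
*Hba-a2*: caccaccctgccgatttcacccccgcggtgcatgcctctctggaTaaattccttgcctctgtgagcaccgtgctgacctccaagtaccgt
*Hbb-bs*: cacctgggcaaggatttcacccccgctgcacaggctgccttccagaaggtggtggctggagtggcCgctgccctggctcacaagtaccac
*Hbb-bt*: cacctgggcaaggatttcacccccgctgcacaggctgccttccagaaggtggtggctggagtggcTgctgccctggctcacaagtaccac

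Of the 150-base stretches of the *Hba-a1* transcript, the length of a sequenced read, 61.0% were also in the *Hba-a2* transcript. In the beta pair 54.6% of the stretches of *Hbb-bs* were also in *Hbb-bt*. The authors' counting program divides reads that fit both genes in proportion, so the sum of a pair is firmer than the split within it, and both are given here.

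The promoters of 3 globin genes and *Alas2* are shown over the 130 bases before the transcription start, as RefSeq gives them on GRCm38.p6. Capitals mark matches on either strand to 4 short motifs of red cell promoters, namely the TATA box core (TATAA), the CCAAT box (CCAAT), the CACCC box (CACCC) and a GATA motif (AGATAA).
*Hba-a1*, chr11:32283542-32283671, plus strand: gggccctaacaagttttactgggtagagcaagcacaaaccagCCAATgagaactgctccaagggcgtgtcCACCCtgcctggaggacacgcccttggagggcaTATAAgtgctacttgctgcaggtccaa
*Hbb-bs*, chr7:103827929-103828058, minus strand: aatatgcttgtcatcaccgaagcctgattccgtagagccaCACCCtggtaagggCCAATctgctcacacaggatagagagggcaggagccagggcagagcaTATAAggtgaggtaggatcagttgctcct
*Hbb-bt*, chr7:103813924-103814053, minus strand: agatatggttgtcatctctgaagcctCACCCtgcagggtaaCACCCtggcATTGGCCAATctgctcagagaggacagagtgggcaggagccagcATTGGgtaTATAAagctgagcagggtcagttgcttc
*Alas2*, chrX:150547287-150547416, plus strand: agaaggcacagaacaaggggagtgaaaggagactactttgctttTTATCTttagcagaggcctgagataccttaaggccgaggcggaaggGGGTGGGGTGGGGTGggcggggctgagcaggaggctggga

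The *Hba-a2* promoter was identical to that of *Hba-a1* over the 280 bases compared, with the start set 3 bases apart. The 3 promoters of the globins shown each held a TATA core, a CCAAT box and a CACCC box, motifs found in 12.7%, 22.4% and 33.7% of 32851 promoters of this length. *Hbb-bt* held 3 CCAAT matches, 2 of them adjoining in opposite orientation, and 2 CACCC matches, where *Hbb-bs* held 1 of each. The *Alas2* promoter held no TATA core or CCAAT match, 3 overlapping or adjoining CACCC matches on the opposite strand and 1 GATA motif, which 4.79% of promoters held. Letter matches in these windows are a description and were not tied to any measurement of binding.

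Levels were compared between genes only per kb of the first-listed GENCODE transcript, as CPM per kb, where CPM is counts per 1000000 counts after TMM scaling of the library. In WT SH ventricles the alpha-globins and *Hbb-bs* stood together at the top, with 264 ± 40.3 CPM per kb for *Hba-a1*, 289 ± 41.8 for *Hba-a2* and 220 ± 62.4 for *Hbb-bs* (mean ± SD, n = 4). The SDs of these 3 overlapped. Library by library, both alpha-globins stood above *Hbb-bs* in every WT SH library, while *Hba-a1* and *Hba-a2* changed order between libraries. These orders were not tested. *Hbb-bt* came next at 25.2 ± 16.5 CPM per kb, then *Alas2* at 14.4 ± 1.79, then *Slc4a1* at 0.859 ± 0.0895. The SD of *Hbb-bt* reached down to *Alas2*, and *Slc4a1* stood apart below both. Together the matched genes took between 0.0392% and 0.127% of a library's counts.

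The globins found were those of the adult. The embryonic globins *Hbb-y*, *Hbb-bh1*, *Hbb-bh2* and *Hba-x* were at 0 counts in all 16 libraries, where a count of 3, used as the lower limit of detection, equals 0.0577 to 0.0858 CPM depending on the library. Of 7 listed genes for erythroid transcription factors and the erythropoietin receptor, 3 were also near or under that limit, with *Gata1* between 0 and 0.0841 CPM, *Klf1* between 0 and 0.135 CPM and *Gfi1b* between 0 and 0.0451 CPM. The other 4 were tested and not called in any comparison, with *Zfpm1* between 15.7 and 21.8 CPM, *Tal1* between 3.56 and 5.51 CPM, *Nfe2* between 0.0675 and 0.501 CPM and the receptor gene *Epor* between 0.107 and 0.432 CPM. In bulk tissue, fewer red cells and less RNA per red cell cannot be told apart, and the blood volume in the ventricles was not measured.

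**Figure D1:**
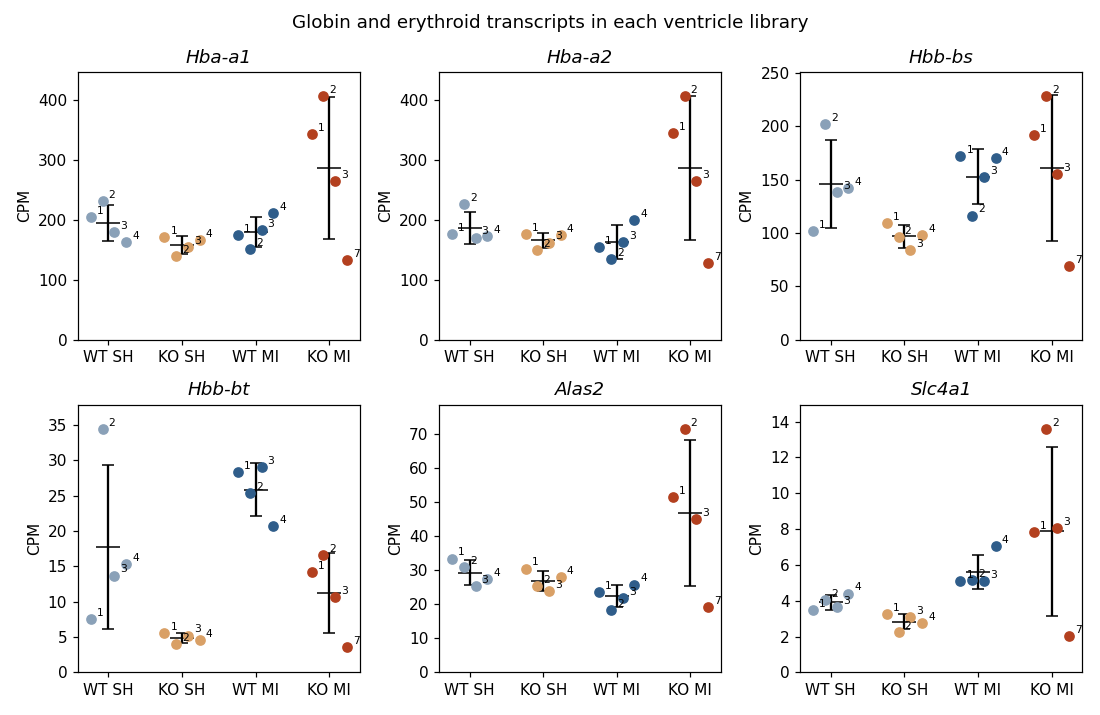
CPM of each of the 6 tested genes (linear axis from 0) in every library, by group, with the replicate number beside each point and the mean ± SD of 4 libraries in black. In KO MI, replicates 1 to 3 stand above the sham groups for all genes but the beta-globins, and replicate 7 stands at or near the bottom.

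The infarcted KO hearts held both the highest and the lowest levels of most of the red cell genes. The alpha-globin *Hba-a1* was measured at 344, 407 and 265 CPM in KO MI replicates 1 to 3 and at 133 CPM in replicate 7. In KO SH it was measured at 172, 139, 155 and 167 CPM in replicates 1 to 4. Replicates 1 to 3 of KO MI were thus above all 12 libraries of the other groups, the highest of which held 232 CPM, while replicate 7 was below all of them. *Hba-a2* followed the same order, with 346, 407, 265 and 128 CPM in KO MI against 177, 149, 162 and 174 CPM in KO SH.

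*Alas2*, the heme synthesis gene, was at 51.4, 71.4, 45.0 and 19.3 CPM in the KO MI libraries, in replicate order. It was at 30.5, 25.3, 23.8 and 28.1 CPM in KO SH. *Slc4a1*, the band 3 gene, was at 7.81, 13.6, 8.08 and 2.01 CPM in KO MI and at 3.25, 2.27, 3.09 and 2.75 CPM in KO SH. For both genes replicates 1 to 3 of KO MI exceeded all 12 libraries of the other groups, whose highest values were 33.4 CPM for *Alas2* and 7.04 CPM for *Slc4a1*. The beta-globin *Hbb-bs* was at 192, 228, 156 and 68.8 CPM in KO MI and between 83.6 and 109 CPM in KO SH. Because of replicate 7, the KO MI and KO SH ranges overlapped for all 6 genes.

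Against KO SH, the fit called all 6 of the 6 tested genes higher in KO MI, where 5.31% of the 20159 genes tested were called higher. A gene counts as called when its Benjamini-Hochberg adjusted p over all genes, from the quasi-likelihood test of edgeR, is under 0.1 and its log2 fold change is 0.5 or more in either direction. Each SE of a fold change was worked back from that test, as the absolute log2 fold change over the square root of F. *Slc4a1* rose by 1.48 on the log2 scale (SE 0.34, edgeR adjusted p = 0.0102), *Hbb-bt* by 1.22 (SE 0.40, edgeR adjusted p = 0.0567) and *Hba-a1* by 0.86 (SE 0.22, edgeR adjusted p = 0.0186). *Alas2* rose by 0.80 (SE 0.24, edgeR adjusted p = 0.0398), *Hba-a2* by 0.79 (SE 0.23, edgeR adjusted p = 0.0322) and *Hbb-bs* by 0.74 (SE 0.26, edgeR adjusted p = 0.0729). The pair sums rose alike, by 0.82 (SE 0.22) for alpha and 0.76 (SE 0.26) for beta. The median log2 fold change over all genes tested was -0.01.

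Markers of other cells were called in the same comparison, where 5.31% of all genes tested were called higher. Of 8 tested macrophage markers 6 were called higher (median log2 fold change 0.81), with summed levels between 51.0 and 116 CPM in KO MI and between 43.6 and 52.0 CPM in KO SH. Of 5 tested skeletal muscle markers 4 were called higher, and of 6 endothelial markers none was called by edgeR and all 6 estimates lay below 0. Mitochondrially encoded genes took between 38.1% and 44.99% of the counts in KO MI, with the lowest share in replicate 2, and between 46.8% and 47.8% in KO SH. All 6 red cell genes were still called when the mitochondrially encoded genes were left out of the fit. The part of the other cells in the red cell values was not tested.

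These calls rest on few libraries. Without KO MI replicate 2, which held the most, 2 of the 6 were called, and without KO MI replicate 7 all 6 were called, with log2 fold changes from 0.99 for *Hbb-bs* to 1.78 for *Slc4a1*. Leaving out a KO SH library left from 3 (replicate 3) to 5 (replicate 1) calls, and a fit of the KO MI and KO SH libraries alone left 3, *Hba-a1*, *Hbb-bt* and *Slc4a1*. An exact permutation test (two-sided) on each gene gave p = 0.143 for 5 genes and p = 0.171 for *Hbb-bs*, where 4 libraries against 4 cannot go below 0.0286.

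**Figure D2:**
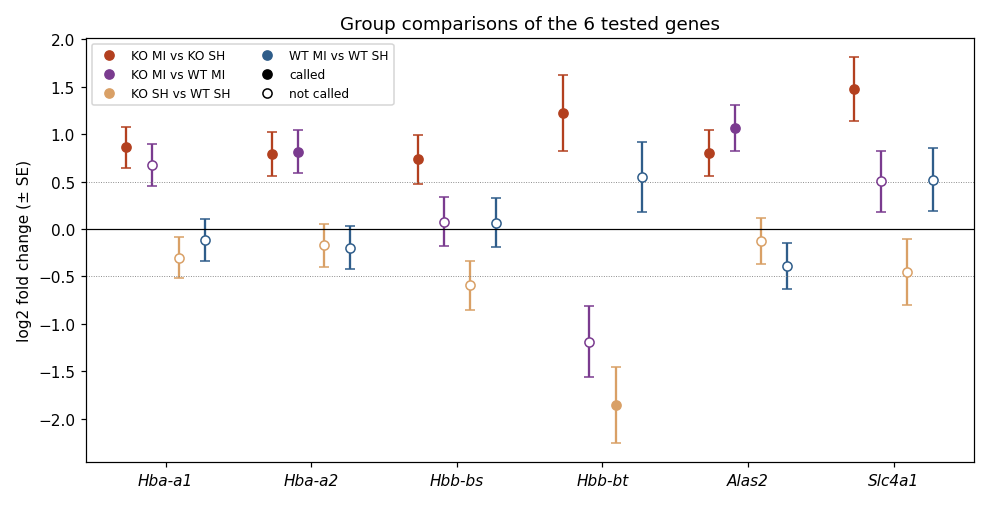
Log2 fold change with its SE (edgeR, 16 libraries in 1 fit, 4 per group) of the 6 tested genes in 4 comparisons. Filled points passed the call, open points did not, and dotted lines mark a log2 fold change of 0.5 in either direction. All 6 genes are filled and above 0 for KO MI against KO SH, and *Hbb-bt* alone is below -1 in both KO against WT comparisons.

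Between the infarcted hearts of the 2 genotypes, *Alas2* and 1 alpha-globin were higher in KO, and neither beta-globin was called. In WT MI, *Alas2* was measured at 23.5, 18.3, 21.9 and 25.8 CPM and *Hba-a2* at 154, 134, 164 and 200 CPM. Of the 6 genes tested, 2 were called higher in KO MI, where 0.57% of all genes tested were called higher and 1.73% in either direction. *Alas2* rose by 1.07 (SE 0.24, edgeR adjusted p = 0.0277) and *Hba-a2* by 0.81 (SE 0.23, edgeR adjusted p = 0.0841). *Hba-a1*, with 174, 152, 183 and 212 CPM in WT MI, differed by 0.67 (SE 0.22, edgeR adjusted p = 0.157) and was not called.

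*Hbb-bs* was at 172, 116, 152 and 171 CPM in WT MI, inside the KO MI range, and differed by 0.08 (SE 0.26, edgeR adjusted p = 0.947). *Slc4a1* was at 5.09, 5.14, 5.11 and 7.04 CPM in WT MI and differed by 0.50 (SE 0.32, edgeR adjusted p = 0.583). As sums, the alpha pair differed by 0.74 (SE 0.22) and the beta pair by -0.05 (SE 0.26). Without KO MI replicate 7, 4 genes were called higher in KO MI, *Hba-a1*, *Hba-a2*, *Alas2* and *Slc4a1*. *Alas2* stayed called in all 16 fits that left out a library. *Hba-a2* lost its call in 11 of them, those without WT SH replicate 3, any KO SH library, or any of replicates 1 to 3 of WT MI and of KO MI (edgeR adjusted p of up to 0.249). In a fit of these 2 groups alone none was called, and by exact permutation tests (two-sided) p was 0.114 for *Alas2* and 0.143 for *Hba-a2*.

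The interaction asks whether the KO effect differed between MI and sham. It called 0 of the 6 genes by edgeR, where 0.0248% of all genes were called, with estimates from 0.67 (SE 0.54) for *Hbb-bt* to 1.19 (SE 0.34, edgeR adjusted p = 0.190) for *Alas2*. The unadjusted edgeR p was under 0.05 for 3 of them, 0.00580 for *Hba-a1*, 0.00654 for *Hba-a2* and 0.00274 for *Alas2*, and DESeq2 called 3. Without KO MI replicate 7 the interaction called 5, with estimates between 0.92 for *Hbb-bs* and 1.44 for *Alas2*, and *Hbb-bt* was not among them.

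*Hbb-bt*, the adult beta-globin gene with fewer counts than *Hbb-bs* here, was lower in every KO library than in every WT library of the same operation. In sham hearts it was measured at 5.52, 4.05, 5.22 and 4.64 CPM in KO and at 7.54, 34.4, 13.7 and 15.3 CPM in WT. In infarcted hearts it was at 14.2, 16.7, 10.6 and 3.64 CPM in KO and at 28.3, 25.4, 29.1 and 20.8 CPM in WT. The genotypes did not overlap in either setting. KO MI replicates 1 to 3 held more alpha-globin than any WT library. How many of all genes tested had no overlap was not counted.

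Between the sham groups 1 of the 6 genes was called, *Hbb-bt*, where 2.53% of all genes were called lower and 5.01% in either direction. *Hbb-bt* fell by 1.86 on the log2 scale (SE 0.40, edgeR adjusted p = 0.00953). It stayed past the threshold in all 16 fits that left out a library, with a smallest change of -1.31 without WT SH replicate 2. Between the infarcted groups the estimate was -1.19 (SE 0.37, edgeR adjusted p = 0.136), which was not called. It was called without WT SH replicate 1, WT SH replicate 2 or KO MI replicate 2 (lowest edgeR adjusted p = 0.0560). By exact permutation test (two-sided) p was 0.0286 in each setting, the smallest that 4 against 4 can give, and 0.171 after Benjamini-Hochberg adjustment over 24 such tests.

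The other 5 genes were not called between the sham groups, with log2 fold changes between -0.12 (SE 0.24) for *Alas2* and -0.59 (SE 0.26, edgeR adjusted p = 0.176) for *Hbb-bs*, and all 6 estimates lay below 0. *Slc4a1* did not overlap between the sham groups, with 2.27 to 3.25 CPM in KO SH and 3.50 to 4.40 CPM in WT SH. It differed by -0.45 (SE 0.35, edgeR adjusted p = 0.471), and the share of all genes without overlap was not counted. *Hbb-bs* was called in addition to *Hbb-bt* when the 8 sham libraries were fitted alone (edgeR adjusted p = 0.0244) and when KO MI replicate 7 was left out (edgeR adjusted p = 0.0306).

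The split of the beta-globin pair shows the same shift within each library, free of normalization. *Hbb-bt* made up 6.90%, 14.6%, 9.03% and 9.68% of the pair's counts in WT SH and 4.81%, 4.04%, 5.87% and 4.51% in KO SH. In WT MI its share was 14.1%, 17.9%, 16.01% and 10.9%, and in KO MI replicates 1, 2, 3 and 7 it was 6.86%, 6.80%, 6.40% and 5.02%. All 8 KO shares lay below all 8 WT shares, the closest being 6.86% in KO MI replicate 1 and 6.90% in WT SH replicate 1. The 95% Wilson intervals, which cover counting error only, were between 0.885 and 1.85 percentage points wide, and those of these 2 libraries overlapped. Within KO MI the share was lowest, 5.02%, in replicate 7, which also held the least *Hbb-bs*, over a 3.32-fold range of *Hbb-bs* CPM. The intervals of replicates 7 and 1, 4.26% to 5.91% and 6.38% to 7.37%, did not overlap. Whether the share depends on the globin level was not tested.

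On the log2 scale the ratio of *Hbb-bs* to *Hbb-bt* was 4.32 ± 0.24 in KO SH and 3.21 ± 0.50 in WT SH (SD, n = 4), a difference of 1.11 (two-sided exact permutation test, p = 0.0286, adjusted over 8 ratio tests 0.0571). After MI it was 3.91 ± 0.22 in KO and 2.56 ± 0.36 in WT, a difference of 1.36 (two-sided exact permutation test, p = 0.0286, adjusted 0.0571). Between WT MI and WT SH the ratio differed by -0.66 (exact permutation p = 0.0857, adjusted 0.114), and between KO MI and KO SH by -0.41 (exact permutation p = 0.0571, adjusted 0.0914).

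**Figure D3:**
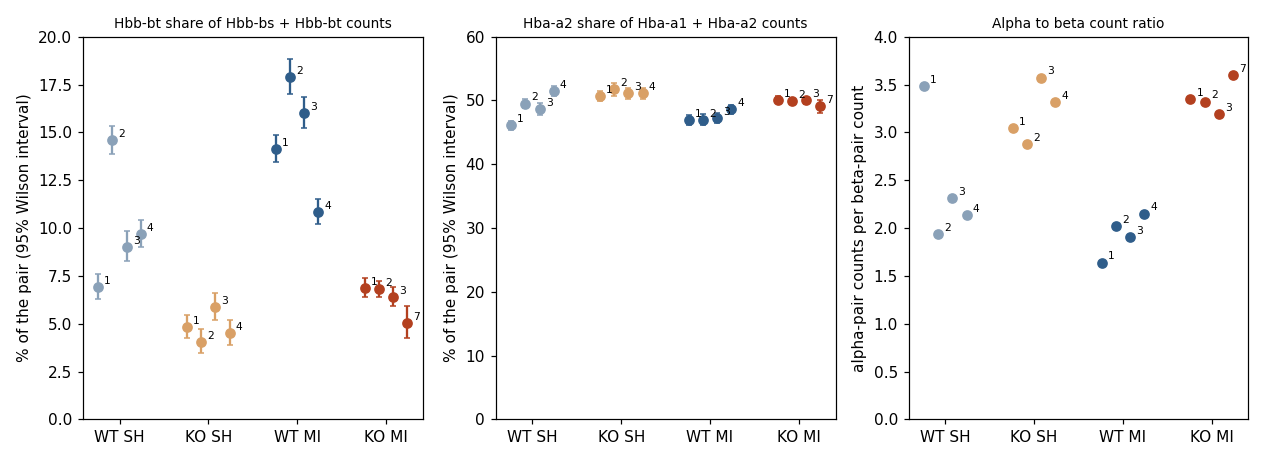
Percent of the beta-globin pair's counts given to *Hbb-bt* (left) and of the alpha-globin pair's counts given to *Hba-a2* (middle), each with its 95% Wilson interval, and alpha-globin counts per beta-globin count (right), in every library by group, with the replicate number beside each point. The KO shares of *Hbb-bt* lie between 4.04% and 6.86% and the WT shares between 6.90% and 17.9%, while the *Hba-a2* shares all lie between 46.1% and 51.7%.

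The alpha-globin pair was split almost evenly everywhere. *Hba-a2* made up between 46.1% and 51.5% of the pair's counts in WT SH, 50.6% and 51.7% in KO SH, 46.9% and 48.6% in WT MI, and 49.1% and 50.1% in KO MI. The log2 ratio of *Hba-a1* to *Hba-a2* differed by -0.14 between KO MI and WT MI and by 0.08 between KO MI and KO SH (two-sided exact permutation test, p = 0.0286 and adjusted p = 0.0571 for each), beside the shift of 1.36 in the beta pair between the infarcted groups. Reads that fit both genes stand behind both values, and the effect of their division was not tested.

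Alpha-globin also outweighed beta-globin by more in KO hearts. Counts of the alpha pair per count of the beta pair were 3.20 ± 0.307 in KO SH and 2.47 ± 0.696 in WT SH (SD, n = 4). After MI they were 3.36 ± 0.171 in KO and 1.93 ± 0.218 in WT. The KO MI libraries lay between 3.19 and 3.60 and the WT MI libraries between 1.64 and 2.15, with no overlap, whereas WT SH replicate 1 at 3.49 lay inside the KO SH range of 2.87 to 3.57. This ratio was formed after the values were seen and was not tested.

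*Alas2* was also set against alpha-globin. There were 77.1 ± 9.11 *Alas2* counts per 1000 alpha-globin counts in WT SH, 83.1 ± 5.84 in KO SH, 65.3 ± 4.24 in WT MI and 80.3 ± 7.08 in KO MI (SD, n = 4). In KO MI the ratio was 74.5, 87.8, 84.9 and 74.0 in replicates 1, 2, 3 and 7. The library poorest in alpha-globin, replicate 7, was thus within 1 count per 1000 of replicate 1. All 4 WT MI libraries, at 62.6 to 71.6, lay below all KO MI libraries and below all KO SH libraries, which held 75.1 to 87.5. This ratio, too, was formed after the values were seen and was not tested.

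Some other expressed genes around the beta-globin genes were called between the genotypes as well, though none in both settings, in a look taken after the *Hbb-bt* values were seen. Among 12 other tested genes within 1 Mb of the pair, 3 were called between KO SH and WT SH and 5 between KO MI and WT MI, beside the background of 5.01% and 1.73%. In sham hearts these were the olfactory receptor genes *Or51af1* (2.82, SE 0.53), *Or52ae7* (1.97, SE 0.36) and *Or52d13* (1.79, SE 0.44), higher in KO on the log2 scale and between 322 and 357 kb from *Hbb-bt*. In infarcted hearts they were genes of the Trim family 406 to 543 kb away on the other side, *Trim34b* (2.29, SE 0.54) and *Trim12c* (0.58, SE 0.12) higher in KO, and *Trim30b* (-1.69, SE 0.43), *Trim6* (-1.27, SE 0.32) and *Trim34a* (-0.75, SE 0.19) lower. After MI the olfactory receptor genes were not called, at 1.75 for *Or51af1*, 0.55 for *Or52ae7* and -0.07 for *Or52d13*. In sham hearts the 5 Trim genes were not called and had the same direction as after MI, with smaller estimates. There *Trim12c* passed the threshold of the adjusted p (0.34, SE 0.12, edgeR adjusted p = 0.0984) and missed only that of the fold change. The mean level of the neighbours called in either setting ran from 0.186 CPM for *Or52d13* to 12.4 CPM for *Trim12c*. Olfactory receptor and Trim genes are both families of similar genes next to each other, among which reads can be divided wrongly.

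Within 1 Mb of the alpha-globin genes, 0 of 16 other tested genes were called by edgeR in either KO against WT comparison. Around *Alas2* the count was 0 of 15 in both, around *Slc4a1* 0 of 60 and 1 of 60, and around *Hemgn* 0 of 20 in both. Inbred mouse strains are known to carry different haplotypes of the beta-globin genes. The DNA sequence of the region in these animals was not analysed here, and its part in the *Hbb-bt* values was not tested.

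**Figure D4:**
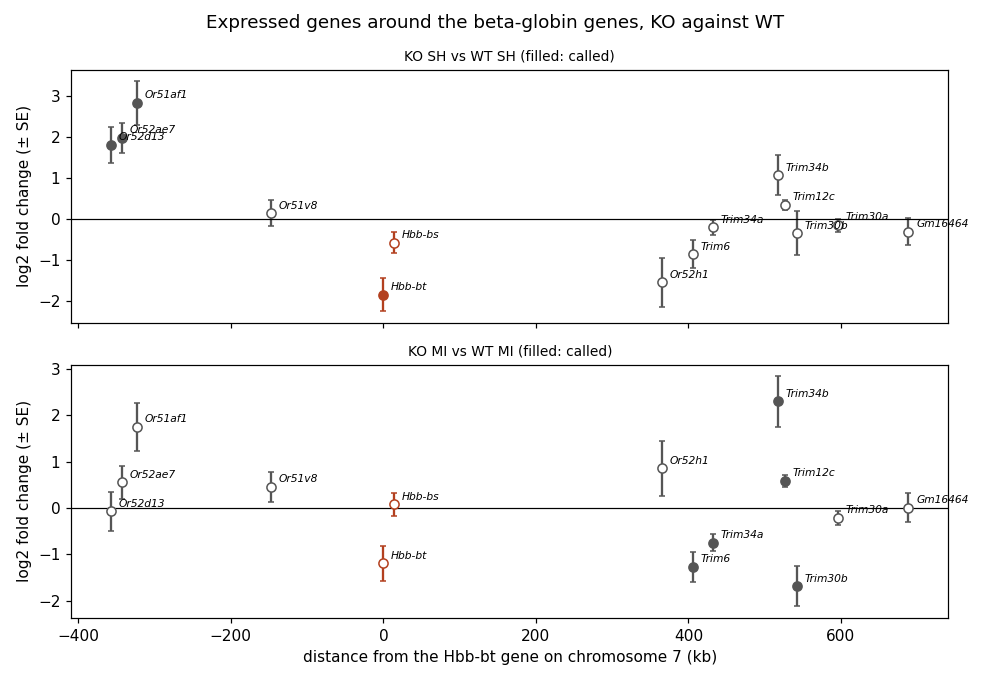
Log2 fold change with its SE (edgeR, 4 libraries per group) of tested genes against their distance in kb from *Hbb-bt*, for KO SH against WT SH (top) and KO MI against WT MI (bottom). The beta-globin genes are in red and filled points passed the call, which 3 of 12 other genes did in the top panel and 5 of 12 in the bottom one.

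In WT hearts, no red cell gene was called after MI. Between WT MI and WT SH, 0 of the 6 genes were called by edgeR, where 2.78% of all genes were called. No gene had an unadjusted edgeR p under 0.05, and DESeq2 also called 0. *Hba-a1* differed by -0.12 (SE 0.22), *Hba-a2* by -0.20 (SE 0.23) and *Hbb-bs* by 0.07 (SE 0.26). *Alas2* was at 33.4, 31.0, 25.2 and 27.4 CPM in WT SH and differed by -0.39 (SE 0.24). *Hbb-bt* differed by 0.55 (SE 0.37), with WT SH replicate 2 above all WT MI libraries and the other 3 below them.

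*Slc4a1* was the exception in its ranges, though the share of all genes without overlap was not counted. It was at 3.50, 4.06, 3.66 and 4.40 CPM in WT SH and at 5.09 CPM or more in all WT MI libraries, with no overlap and a log2 fold change of 0.52 (SE 0.33, edgeR adjusted p = 0.470). When the 8 WT libraries were fitted alone, *Slc4a1* was called (edgeR adjusted p = 0.0439). An exact permutation test (two-sided) gave p = 0.0286, the smallest possible, and 0.171 after Benjamini-Hochberg adjustment over 24 tests.

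Beyond the listed members, 47 further genes of the red cell programme were examined, of which 35 were tested. They cover heme synthesis and iron uptake, the red cell membrane, erythroid transcription factors and the erythropoietin receptor, other globins, and enzymes of the reticulocyte. Between KO MI and KO SH, 6 were called higher and 1 lower, beside 5.31% and 2.11% of all genes and 7.42% in either direction. The median log2 fold change was 0.17 over the 35 genes and -0.01 over all genes. Without KO MI replicate 2, 3 were called in all, without KO SH replicate 2 or 3, 4, and without KO MI replicate 7, 12. Between KO MI and WT MI 1 was called higher, where 0.57% of all genes were called higher and 1.73% in either direction. Between KO SH and WT SH, between WT MI and WT SH and in the interaction edgeR called 0 of the 35. Of all genes it called 5.01%, 2.78% and 0.0248% there. DESeq2 called 2, 0 and 2 of the 35.

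Of the genes called between KO MI and KO SH, *Bpgm* had the same order of KO MI libraries as *Alas2*. *Bpgm*, whose enzyme makes the 2,3-bisphosphoglycerate that tunes oxygen release from haemoglobin, was at 20.3, 23.1, 17.3 and 9.44 CPM in KO MI. It rose by 0.66 against KO SH (SE 0.17, edgeR adjusted p = 0.0209).

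*Trim10* and *Car2* were also lowest in KO MI replicate 7, whereas *Add2* and *Aqp1* did not follow that order. *Trim10*, an erythroid ubiquitin ligase gene, rose by 1.31 (SE 0.43, edgeR adjusted p = 0.0553), from 0.214 CPM in KO MI replicate 7 to 1.12 CPM in replicate 3. *Car2*, a carbonic anhydrase gene, rose by 0.64 (SE 0.24, edgeR adjusted p = 0.0921), with 1.12 CPM in KO MI replicate 7 and 1.46 CPM or more in KO SH. *Add2*, which encodes beta-adducin of the membrane skeleton, rose by 0.65 (SE 0.15, edgeR adjusted p = 0.00923) and was at 2.86 CPM in KO MI replicate 7, above replicates 1 and 3. *Aqp1*, a water channel of red cells that capillary endothelium also makes, fell by 0.60 (SE 0.07, edgeR adjusted p = 0.000278). *Aqp1* lay between 50.2 and 59.1 CPM in KO MI and between 72.9 and 88.6 CPM in KO SH.

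The genes of the lists with the highest mean CPM were not called in any comparison. They were *Tfrc*, the transferrin receptor of dividing and iron-hungry cells, and *Sptb* and *Ank1*, which encode beta-spectrin and ankyrin 1. *Tfrc* was at 320, 547, 384 and 152 CPM in KO MI, its highest and lowest values of all 16 libraries falling in replicates 2 and 7. These genes are also used outside red cells, and the share of their RNA from the heart muscle was not separated here.

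Variation among libraries of a group was wider for the red cell genes than for most genes of their level. The SD of log2(CPM + 0.5) within groups was 0.39 for *Hba-a1*, 0.40 for *Hba-a2*, 0.43 for *Alas2*, 0.46 for *Hbb-bs*, 0.55 for *Slc4a1* and 0.65 for *Hbb-bt*. Among genes within 2-fold of the same mean CPM, between 98.7% and 99.6% had a smaller SD, and the median SD of those genes lay between 0.09 and 0.15. The spread was narrower without KO MI replicate 7, at an SD of 0.22 for *Hba-a1*, *Hba-a2* and *Alas2*, 0.29 for *Hbb-bs*, 0.25 for *Slc4a1* and 0.50 for *Hbb-bt*. Between 91.5% and 99.5% of genes of like level then had a smaller SD. From the lowest to the highest of the 16 libraries, *Hba-a1* spanned 3.07-fold, *Hba-a2* 3.18-fold, *Hbb-bs* 3.32-fold, *Alas2* 3.91-fold, *Slc4a1* 6.77-fold and *Hbb-bt* 9.46-fold. KO MI replicate 2 was the highest library for 5 of the 6 and WT SH replicate 2 for *Hbb-bt*. KO MI replicate 7 was the lowest for 5, and WT MI replicate 2 for *Alas2*.

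Across the 16 libraries the red cell genes were correlated, with a relation counted as passing at an adjusted permutation p under 0.05. With *Hbb-bs* on log2(CPM + 0.5), Pearson's r was 0.84 for *Slc4a1*, 0.80 for *Hbb-bt*, 0.78 for *Hba-a1*, 0.73 for *Hba-a2* and 0.59 for *Alas2*. The permutation p-values, adjusted over 11 relations, were 0.00055, 0.00117, 0.00077, 0.00223 and 0.0277 in that order, and Spearman's rho was 0.84, 0.80, 0.83, 0.67 and 0.48. For rho the permutation p after adjustment was 0.000825, 0.00121, 0.000825, 0.0144 and 0.117. Without KO MI replicate 7 and KO SH replicate 3, the libraries farthest from the median of *Hbb-bs*, r was 0.80, 0.72, 0.75, 0.71 and 0.51. The relation with *Alas2* rests on single libraries, since it no longer passed without KO MI replicate 1, 2 or 7 (adjusted permutation p of up to 0.164).

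Within groups, where the genotype shift of the beta pair does not enter, the relation rested largely on KO MI. On values centred on their group mean, r was 0.92 for *Hba-a2*, 0.88 for *Hbb-bt*, 0.87 for *Hba-a1*, 0.85 for *Alas2* and 0.84 for *Slc4a1*. The largest adjusted permutation p of these 5 was 0.000616. Centred values were shuffled over all libraries and not within groups, though *Hbb-bs* spread most widely in KO MI. The permutation p-values of centred relations can therefore be too small. Without KO MI replicate 7 the centred r was 0.76 for *Hba-a2*, 0.77 for *Hbb-bt*, 0.61 for *Hba-a1*, 0.52 for *Alas2* and 0.47 for *Slc4a1*, and the last 3 no longer passed (adjusted permutation p of 0.0572, 0.0910 and 0.126). Over the 12 libraries of the other 3 groups none of the 5 passed, with centred r between 0.36 for *Slc4a1* and 0.75 for *Hbb-bt* and adjusted permutation p-values from 0.0548 to 0.337. In WT SH, replicate 1 held the most *Alas2*, 33.4 CPM, and the least *Hbb-bs*, 102 CPM. Reads shared within the beta pair enter the value of *Hbb-bt*.

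**Figure D5:**
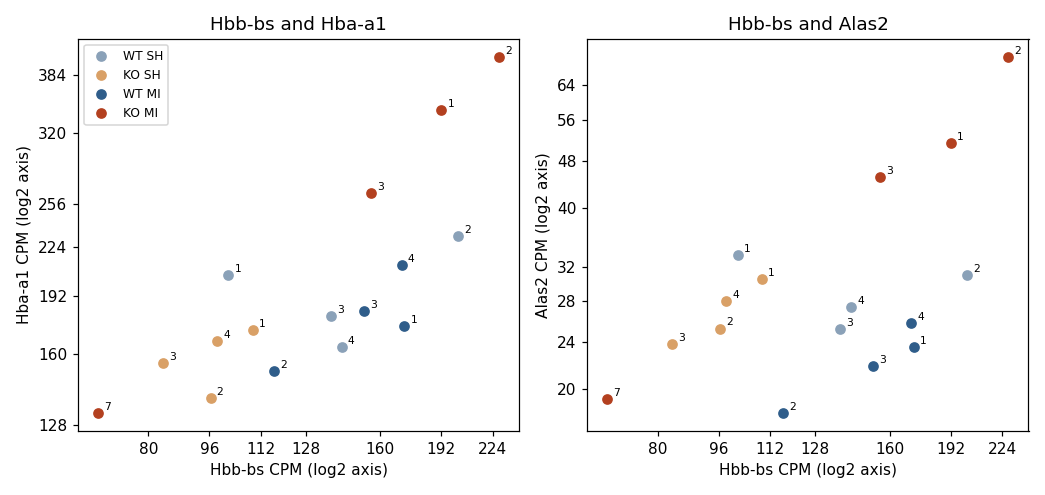
CPM of *Hba-a1* (left) and *Alas2* (right) against CPM of *Hbb-bs* in the 16 libraries, on log2 axes, coloured by group and with the replicate number beside each point. KO MI replicates 1 to 3 lie highest on the vertical axis in both panels, and KO MI replicate 7 lies at the far left.

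Of 4 markers of other cells, 1 passed the test of its relation with *Hbb-bs*. The platelet gene *Pf4*, at 1.25 to 2.17 CPM, had r = 0.61 with *Hbb-bs* (permutation p adjusted 0.0277), and no longer passed without WT SH replicate 2, KO MI replicate 2 or KO MI replicate 7 (adjusted permutation p of up to 0.0777). The other genes of the platelet list were not set against *Hbb-bs*, so *Pf4* does not stand for the list. For the neutrophil gene *S100a8* r was 0.15, for the endothelial gene *Pecam1* 0.11, for the cardiomyocyte gene *Myh6* -0.11 and for the total count 0.23, with adjusted permutation p-values between 0.541 and 0.692. Centred on group means, r was 0.54 for *Pf4* (adjusted permutation p = 0.0499) and 0.54 for *Pecam1* (adjusted permutation p = 0.05), and without KO MI replicate 7 it was 0.26 and -0.0012. Of 5 tested platelet genes 1 was called between KO MI and KO SH, and it was lower in KO MI. Of all genes tested, 2.11% were called lower there and 7.42% in either direction. Of the 5 platelet estimates 3 lay above 0 and 2 below. Summed over the platelet list, marker CPM lay between 3.10 and 3.66 in WT SH, 3.49 and 4.46 in KO SH, 3.08 and 3.52 in WT MI, and 2.70 and 4.55 in KO MI. Both ends of the KO MI range were the libraries at the ends for globin, replicate 7 at 2.70 and replicate 2 at 4.55 summed CPM.

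The KO MI libraries also differed from each other in other markers. The neonatal skeletal muscle myosin gene *Myh8* reached 42.3 CPM in replicate 2 and 58.5 CPM in replicate 7, and held 5.10 CPM or less in every other library. The summed macrophage markers reached 116 CPM in replicate 3 against 51.0 to 69.2 CPM in the other 3 KO MI libraries. Summed cardiomyocyte markers lay between 26901 and 29581 CPM in KO MI and between 29231 and 30109 CPM in KO SH. Both libraries rich in *Myh8* were left out together, a choice made after seeing the data. All 6 genes were then called between KO MI and KO SH, and 3 between KO MI and WT MI. Replicates 2 and 7 also held the highest and the lowest levels of most red cell genes, so this fit cannot separate *Myh8* from the globin values. The part of these markers in the globin values was not tested.

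Of 14113 genes compared over the 16 libraries by Pearson's r on log2(CPM + 0.5), the most like *Hbb-bs* included *Gnb1* (0.91), *Ywhaq* (0.91), *Pno1* (0.90) and *Pcdh18* (0.89). The most like *Alas2* included *Tent5c* (0.95), *Bpgm* (0.93), *Isg20* (0.92) and *Ube2l6* (0.91). *Bpgm* was also on the red cell lists, and no gene was named for both.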

How the data were processed

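The deposited table holds RSEM expected counts per gene, which the authors gave as whole numbers without normalization. Per the paper's methods, adapter-trimmed strand-specific read pairs of 150 bases were aligned to GRCm39 with STAR before RSEM; the submitters' processing notes name cutadapt (version 3.4), HISAT2 (version 2.2.1) and RSEM (version 1.1.17) instead, and the annotation release is not given in the sources used here. Of 51912 identifiers, 47772 matched GENCODE release M39. Where a read fits several genes RSEM divides it, so that the table carries an uncertainty it does not state. Depth was 33783874 to 57470159 counts per library. The test took the 20159 genes whose counts summed to 10 or more in every group. Counts were fitted with edgeR (version 4.0.16) under R (version 4.3.3), with TMM scaling and a quasi-likelihood model with 1 coefficient per group over all 16 libraries (F-test, two-sided, Benjamini-Hochberg adjustment over all genes). The thresholds, 0.1 for the adjusted p and 0.5 for the log2 fold change in either direction, follow the study. DESeq2 (version 1.42.0) was an alternative, as were other scalings, filters, thresholds, sample sets, a replicate block and leaving out each library. The edgeR steps were tested on simulated data. Pair ratios used exact permutation tests and correlations 100000 permutations (SciPy version 1.17.1). P-values measure the spread between these 16 mice. Those of the centred relations came from shuffling across groups and can be too small. Genes named are all members, genes of the red cell lists called in any comparison or highest in mean CPM or at 0 throughout, the 5 genes most like *Hbb-bs* and *Alas2*, and the markers of the relations. Of these, 2 genes are not reported here. Neighbours of the globin genes, the erythroid factor, *Myh8* and neutrophil values and the alpha to beta and *Alas2* to alpha ratios were chosen after their values were seen, as were the centred relations and spreads without single libraries or without KO MI. Members and lists were chosen with earlier results of these data known.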

Additional observations from a re-analysis of the deposited data

Results flagged for a closer look

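In each group of 4 libraries, the highest and lowest values of the 6 tested genes, of both pair shares and of the alpha to beta count ratio were checked for a library far from the other 3. Of 36 groups checked 3 held such a library, where chance alone marks about 1 in 20. *Hba-a2* was at 227 CPM in WT SH replicate 2, with the next library at 176 CPM. *Slc4a1* was at 7.04 CPM in WT MI replicate 4, with the next library at 5.14 CPM. The share of *Hba-a2* in the counts of the alpha-globin pair was 49.1% in KO MI replicate 7, with the next library at 49.97%.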

How the results depend on the processing

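The count of members called was 2 between KO MI and WT MI, 1 between KO SH and WT SH, 0 between WT MI and WT SH, 6 between KO MI and KO SH and 0 in the interaction, and the counts for the 35 other red cell genes were 1, 0, 0, 7 and 0. With each library left out in turn the members' counts ranged over 1 to 4, 1 to 2, 0 to 1, 2 to 6 and 0 to 5, and the other genes' counts over 1 to 4, 0 to 2, 0 to 2, 3 to 12 and 0 to 4. The highest members' counts, 4, 2, 1 and 5 for all but KO MI against KO SH, came without KO MI replicate 7, as did 4, 2, 2, 12 and 4 other genes. DESeq2 called 3 members in the interaction and 2, 2 and 2 other genes in KO MI against WT MI, KO SH against WT SH and the interaction. Without a filter on low counts 4 members and 2 other genes were called between KO MI and WT MI and 1 other gene between the sham groups. A robust fit or an adjusted p under 0.05 left 1 member between KO MI and WT MI, and between KO MI and KO SH the stricter p left 4 members and 4 other genes. Fitting the compared groups alone, members called were 0, 2, 1 and 3 and other genes 0, 2, 2 and 4, in the order above. Without a minimum fold change, other genes called were 2, 4, 1 and 11. Without KO MI replicates 2 and 7, other genes called were 2, 2 and 2 in the first 3 comparisons and 3 in the interaction, and members 2 in KO SH against WT SH, 1 in WT MI against WT SH and 4 in the interaction.

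Replicate numbers did not pair the libraries, since same-numbered libraries deviated together with r from -0.13 to 0.18 and others with r from -0.15 to 0.19. With the number as a replicate block, 4, 2, 0, 6 and 5 members and 3, 1, 2, 12 and 3 other genes were called. In that block KO MI replicate 7 shares its number with no library and so adds nothing to a comparison. The r of *Hbb-bs* with *Alas2* ranged over 0.45 to 0.65 and with *Pf4* over 0.55 to 0.69 when a library was left out. No called value reversed its direction, and the pair sums and count ratios kept their direction and their side of the threshold, or moved by less than their spread, under the alternatives run. The beta pair sum changed sign with a library left out, running from -0.27 to 0.20 between KO MI and WT MI. Between WT MI and WT SH it ran from -0.02 to 0.36. The cause of the changes was not tested. Ratios without 1 library cannot reach the threshold as an exact test and were compared by value. Under 3 counts a gene cannot be told from absence, which limits *Hemgn*, *Gata1*, *Klf1* and *Gfi1b*.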

Other observations

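Neutrophil genes, which mark another cell of the blood, rose after MI in WT hearts, where no globin gene was called. Of 8 listed 5 were tested, and between WT MI and WT SH edgeR called all 5 higher (median 3.06 on the log2 scale). Of all 20159 genes 430 were called higher there, and 2.78% in either direction. *S100a8*, a calcium-binding protein gene of neutrophils, rose by 3.99 (SE 0.43, edgeR adjusted p = 9.41e-05), from 0.192, 0.0802, 0.257 and 0.169 CPM in WT SH to 1.18, 3.87, 2.34 and 3.91 CPM in WT MI. *Ngp*, a granule protein gene, rose by 3.50 (SE 0.35, edgeR adjusted p = 6.07e-05). Between KO MI and KO SH 4 of the 5 were called higher, where 5.31% of all genes were, with *Ngp* at 2.03 (SE 0.32, edgeR adjusted p = 0.00123). Between KO SH and WT SH 2 were called higher, where 500 of all 20159 genes were. These were *S100a8* by 1.44 (SE 0.50, edgeR adjusted p = 0.0862) and *S100a9* by 1.02 (SE 0.36, edgeR adjusted p = 0.0940). Between KO MI and WT MI edgeR called 0 of the 5, where 1.73% of all genes were called. Summed over the list, the level lay between 1.38 and 1.88 CPM in WT SH, 2.998 and 3.61 in KO SH, 6.56 and 20.9 in WT MI, and 6.28 and 12.7 in KO MI. *Ly6g*, *Camp* and *Mmp8* were too low to be tested.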
